A study of Mus musculus with 4 samples.

Results

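Gene expression on the APNL+AuEMF array was compared with that on the Primary neuron array. The members of the comparison were all genes with a detection p under 0.01 on at least 1 of these 2 arrays, which gave 9076 of the 16593 genes with a probe. The series holds 4 mouse arrays of Illumina BeadChip type, each hybridised with labelled total RNA and each the single array of its group, and it concerns direct reprogramming into dopamine neurons with an electromagnetic field. The groups used were APNL+AuEMF, with APNL and Fibroblast for context, and Primary neuron. The labels give each group only by this name. They state no strain, age, culture time, vector, field strength or tissue for the neurons, and they do not spell out the abbreviations. From general knowledge of the published work, APNL is read as a set of introduced transcription factors, among them Pitx3, Nurr1 (gene Nr4a2) and Lmx1a, and AuEMF as gold nanoparticles under an electromagnetic field, applied to fibroblasts. No group has a second array, so none of the differences could be checked against replicates and none carries a p-value.

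Direct reprogramming turns one differentiated cell into another by forced expression of transcription factors, without a stem cell stage. Neurons are set apart from fibroblasts by a microtubule and filament system of their own, by the machinery that fills and releases synaptic vesicles, and by receptors and channels, while fibroblasts make collagen, elastin and other matrix. A culture made from dissected tissue or from treated fibroblasts can hold several cell types, and in such bulk RNA fewer cells of a type and less RNA per cell cannot be told apart.

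Levels are log2 normalized intensities after background correction. Of 25697 probes, 11776 were detected on APNL+AuEMF, 11030 on APNL, 10643 on Fibroblast and 12287 on Primary neuron, and the median raw intensity lay between 169 and 207 units over the 4 arrays. A difference is the level on APNL+AuEMF minus that on Primary neuron, and calls of higher and lower need a difference of at least 2-fold. For genes detected on 1 of the 2 arrays only, the other array was set to its lowest detected level (6.58 on APNL+AuEMF and 6.36 on Primary neuron) or to the gene's own level if that was larger, and the fold is written as "at least". Gene lists are counted over members that 1 array or both detected, 605 of the 810 list genes with a probe. Each count is to be read against the share over all compared genes, which is given below. Marker genes fitted the labels in part. Of 8 neuron markers 7 were detected on APNL+AuEMF and 7 on Primary neuron, and their summed level was 78.5 on APNL+AuEMF and 88.7 on Primary neuron. On APNL 6 of them were detected, with a summed level of 70.8, and on Fibroblast 5, with 61.4. All 6 fibroblast markers were detected on both arrays, also on that of the primary neurons, with a summed level of 82.6 on APNL+AuEMF and 70.0 on Primary neuron. The defining dopamine neuron genes Th, Slc6a3 and Slc18a2 were not detected on any of the 4 arrays.

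Most genes were called neither higher nor lower. On APNL+AuEMF, 673 of the 9076 compared genes (7.42%) were higher than on Primary neuron and 612 (6.74%) were lower, which left 7791 (85.8%) as neither. Some of these 7791 were detected on 1 array only, with a measured difference past 2-fold and a bound under it. The median over all was 0.04, the middle 50% of differences ran between -0.35 and 0.43, and 90% ran between -1.30 and 1.33 on the log2 scale. Lists rich in higher genes were those of fibroblasts, muscle, matrix, Hox clusters, macrophages and the acute phase, and lists rich in lower genes were those of neurons and neural progenitors. Among the 8228 genes detected on both arrays, 569 were higher and 561 lower, and a further 104 were higher and 51 lower by their bounds. Past 4-fold there were 144 higher and 80 lower genes, past 8-fold 33 and 4, and past 16-fold 7 and 1. So the split was near even at 2-fold, with more higher genes at the larger folds.

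**Figure D1:**
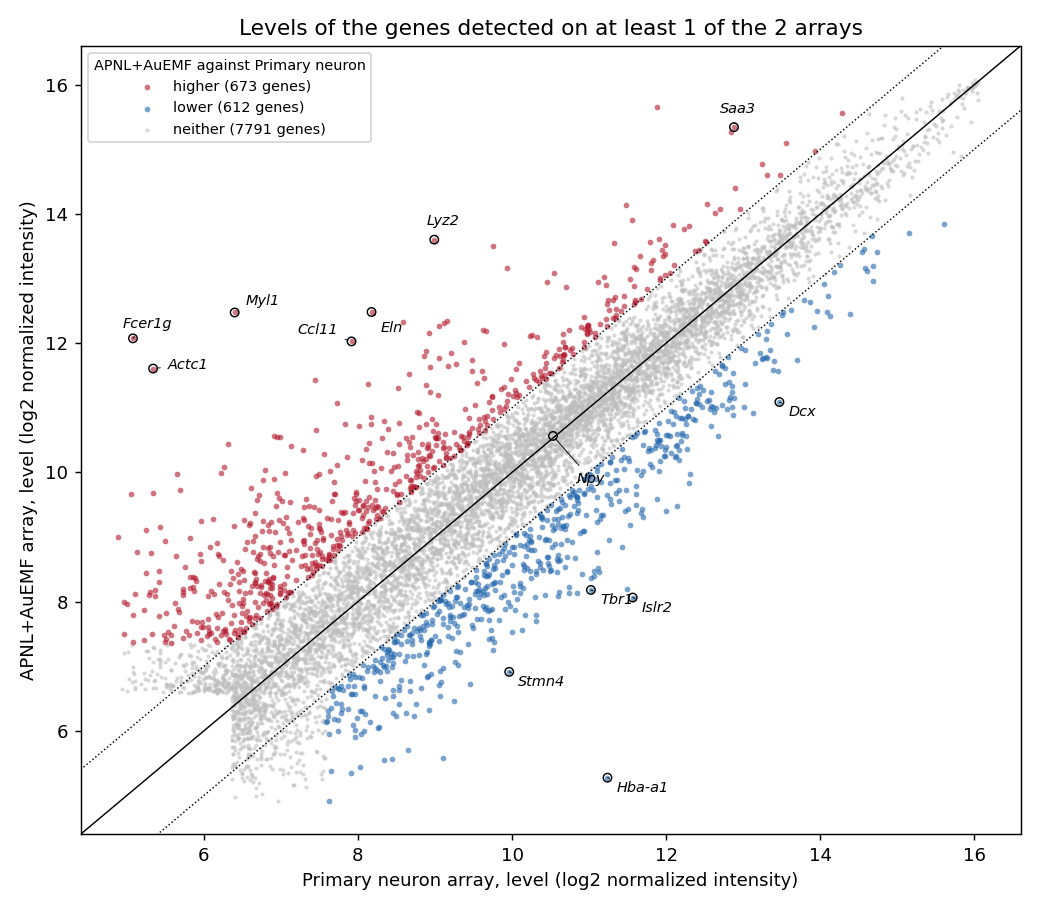
Level of each of the 9076 compared genes on the APNL+AuEMF array (y axis) and on the Primary neuron array (x axis), both as log2 normalized intensity. The solid line marks equal levels and the dotted lines 2-fold; red points are the 673 higher genes, blue points the 612 lower genes and grey points the 7791 others, some of which lie past a dotted line because their bound is under 2-fold. Fcer1g, Actc1, Myl1 and Lyz2 lie far above the lines, Hba-a1, Islr2 and Stmn4 far below, and Npy on the line of equal levels.

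Several of the largest lower differences belonged to genes of neurons. Islr2, a membrane protein of growing axons, had a level of 8.06 on APNL+AuEMF, 6.60 on APNL, 5.19 on Fibroblast and 11.57 on Primary neuron. Its difference of -3.50, or 11.3-fold, was the largest lower one among genes detected on both arrays. Stmn4, a stathmin that binds tubulin in neurons, was at 6.91 on APNL+AuEMF, 5.19 on APNL, 5.09 on Fibroblast and 9.96 on Primary neuron, a difference of -3.05. Both genes thus stood above their Fibroblast level on APNL+AuEMF and well under their Primary neuron level. Tfap2c, a transcription factor of the AP-2 family, differed by -3.30, with 8.20 on APNL+AuEMF and 11.50 on Primary neuron. Gbx2, a homeobox factor of the midbrain-hindbrain boundary, differed by -2.72, and Gpc2, a proteoglycan of growing axons, by -2.67. Celsr3, a cadherin needed for axon tracts, differed by -2.66 and Kalrn, an exchange factor of dendritic spines, by -2.61, while Ccdc184 differed by -2.72. Genes detected on Primary neuron and not on APNL+AuEMF included Lrrc4b, a synaptic adhesion protein, at least 6.31-fold lower, Adgrb2, an adhesion receptor of the brain, at least 5.07-fold, Apc2, a neuronal relative of APC, at least 4.42-fold, and Rnd2, a GTPase of migrating neurons, at least 4.20-fold. With the mean of its probes Adgrb2 had no bound.

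Of 27 compared genes on the pan-neuronal list, 22 were lower on APNL+AuEMF, 1 was higher and 4 were neither, against 6.74% lower over all compared genes. Their median difference was -1.69, against 0.04 over all genes, which puts the middle member at 31.0% of its Primary neuron level. Dcx, doublecortin of migrating young neurons, was at 11.09 on APNL+AuEMF, 9.78 on APNL, 7.79 on Fibroblast and 13.47 on Primary neuron, a 5.21-fold difference. Elavl3, a neuronal RNA-binding protein, was at 8.39 on APNL+AuEMF, 7.30 on APNL, 5.58 on Fibroblast and 11.06 on Primary neuron, a 6.38-fold difference. In both, APNL+AuEMF came second after Primary neuron and Fibroblast last. Stmn3, another stathmin, was at 9.59 on APNL+AuEMF and 11.88 on Primary neuron, and had 5.14, below detection, on Fibroblast. Crmp1, which acts in axon guidance, differed by -2.57. Mapt, which encodes tau, was at 11.74 on APNL+AuEMF and 13.70 on Primary neuron, and Rbfox3, the antigen NeuN of mature neurons, at 9.54 on APNL+AuEMF and 10.65 on Primary neuron. Another usable probe of Mapt differed by -0.51, under 2-fold. Among the 5 exceptions were Eno2, the neuronal enolase, at 12.04 on APNL+AuEMF and 12.25 on Primary neuron, and Ncam1, a neural adhesion molecule that muscle also makes, which was higher at 10.54 on APNL+AuEMF against 9.02 on Primary neuron. The other usable probe of Ncam1 differed by 0.37, under 2-fold. The Tubb3 probe was weak on every array and differed by -0.21, and Snap25 was not detected on any.

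The neuronal intermediate filaments were lower too. Ina, internexin of young axons, was at 8.37 on APNL+AuEMF, 7.25 on APNL, 6.03 on Fibroblast and 11.02 on Primary neuron, a difference of -2.65. Nefm, the medium neurofilament, was at 7.98 on APNL+AuEMF, 6.76 on APNL, 7.21 on Fibroblast and 9.33 on Primary neuron, a difference of -1.35. These were the 2 members compared, and 3 more were not detected on either array. Over all 5, with no detection filter, the median was -0.17.

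Genes of vesicle release were also lower. On the synaptic vesicle list 15 of 25 compared genes were lower, 0 were higher and 10 were neither, with a median of -1.30. Syt5, a vesicle calcium sensor, was at 7.43 on APNL+AuEMF, 6.02 on APNL, 5.21 on Fibroblast and 9.71 on Primary neuron. Syt1, the calcium sensor of fast release, was at 7.93 on APNL+AuEMF, 7.01 on APNL, 5.94 on Fibroblast and 9.97 on Primary neuron. Both were over 4-fold under Primary neuron, with differences of -2.28 and -2.04. Sv2a, a vesicle glycoprotein, differed by -1.92, Snap91, a clathrin adaptor of vesicle recycling, by -1.91, and Cadps, which primes dense-core vesicles, by -1.82. Nsf, the ATPase that takes apart fusion complexes in all cells, differed by only -0.13, and Stx1a by -0.53.

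Genes of the receiving side of the synapse were lower in part. Only 3 of 12 compared postsynaptic scaffold genes were lower and the rest were neither, at a median of -0.86. Dlg2, a scaffold of glutamate synapses, differed by -1.60, Camk2b, a synaptic kinase, by -1.43 and Nlgn3, a synaptic adhesion protein, by -1.26. Among 10 neurotransmitter receptor genes 6 were lower, and the list's median was -1.24, or -0.15 with no detection filter. Glra2, a glycine receptor subunit of the young brain, was at 8.52 on APNL+AuEMF, 7.89 on APNL, 5.55 on Fibroblast and 11.12 on Primary neuron, a 6.05-fold difference. Chrnb2, a nicotinic receptor subunit, differed by -2.07 and Gria2, an AMPA receptor subunit, by -1.87, while Gria3, another AMPA receptor subunit, differed by 0.59. The voltage-gated channel list had 1 higher, 0 lower and 11 neither of 12, the higher one being Cacna1g, a T-type calcium channel, at 9.74 on APNL+AuEMF and 8.37 on Primary neuron, a difference of 1.37 that was 0.92 with the mean of its probes. Cacna1g was also at 10.37 on APNL and 10.53 on Fibroblast, so its lowest level was that of the neurons. The middle difference of the channel list still lay on the lower side. It was -0.84 at measured values and -0.31 once undetected levels were set to their bounds. Primary neuron detected all 12 channel genes and APNL+AuEMF only 6. Scn3b, undetected on APNL+AuEMF, had a measured difference of -2.19 and a bound of -0.74. For such weak genes a bound can hide a 2-fold difference, so the count of 0 lower does not show equal levels.

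Secretory granule genes followed the pan-neuronal pattern. Lower levels were found for 7 of the 9 compared, and the median was -1.48. Scg3, a granin that sorts hormones into granules, was at 9.97 on APNL+AuEMF, 8.64 on APNL, 5.92 on Fibroblast and 12.31 on Primary neuron. Scg2, secretogranin II, was at 7.89 on APNL+AuEMF, 6.46 on APNL, 5.32 on Fibroblast and 9.91 on Primary neuron. Their differences were -2.34 and -2.03. Pam, which amidates peptides, differed by less than 0.01 between the 2 arrays, with 9.40 on each.

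Many markers of neuron classes were lower on APNL+AuEMF, and others stayed under 2-fold. On the glutamatergic cortical list 9 of 14 genes were lower and none higher, and the median was -1.77. Tbr1, a factor of deep cortical layers, was at 8.18 on APNL+AuEMF, 7.33 on APNL, 5.08 on Fibroblast and 11.02 on Primary neuron, a 7.17-fold difference. Neurod2, a factor of cortical excitatory neurons, differed by -2.62, Fezf2, of corticospinal neurons, by -2.56, Cux2, of upper layers, by -2.48 and Bcl11b, of deep layers, by -1.85. With the mean of its probes the Cux2 difference was -0.68, under 2-fold. On the GABAergic list 5 of 11 genes were lower, the others neither, and the median was -0.95. Reln, the secreted guide of cortical layering, was at 9.84 on APNL+AuEMF, 9.20 on APNL, 8.92 on Fibroblast and 12.30 on Primary neuron. Slc32a1, the vesicular GABA transporter, was at 10.03 on APNL+AuEMF, 8.71 on APNL, 5.88 on Fibroblast and 11.91 on Primary neuron. The differences of Dlx2 and Dlx1, forebrain interneuron factors, were -1.47 and -1.41. In contrast Npy, the neuropeptide Y gene, was at 10.56 on APNL+AuEMF, 9.16 on APNL, 8.03 on Fibroblast and 10.53 on Primary neuron, and Cck, cholecystokinin, differed by -0.23. Sst, somatostatin, at 12.28 on APNL+AuEMF and 13.10 on Primary neuron, and Gad1, which makes GABA, at 11.23 on APNL+AuEMF and 12.18 on Primary neuron, also stayed under a 2-fold difference.

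**Figure D2:**
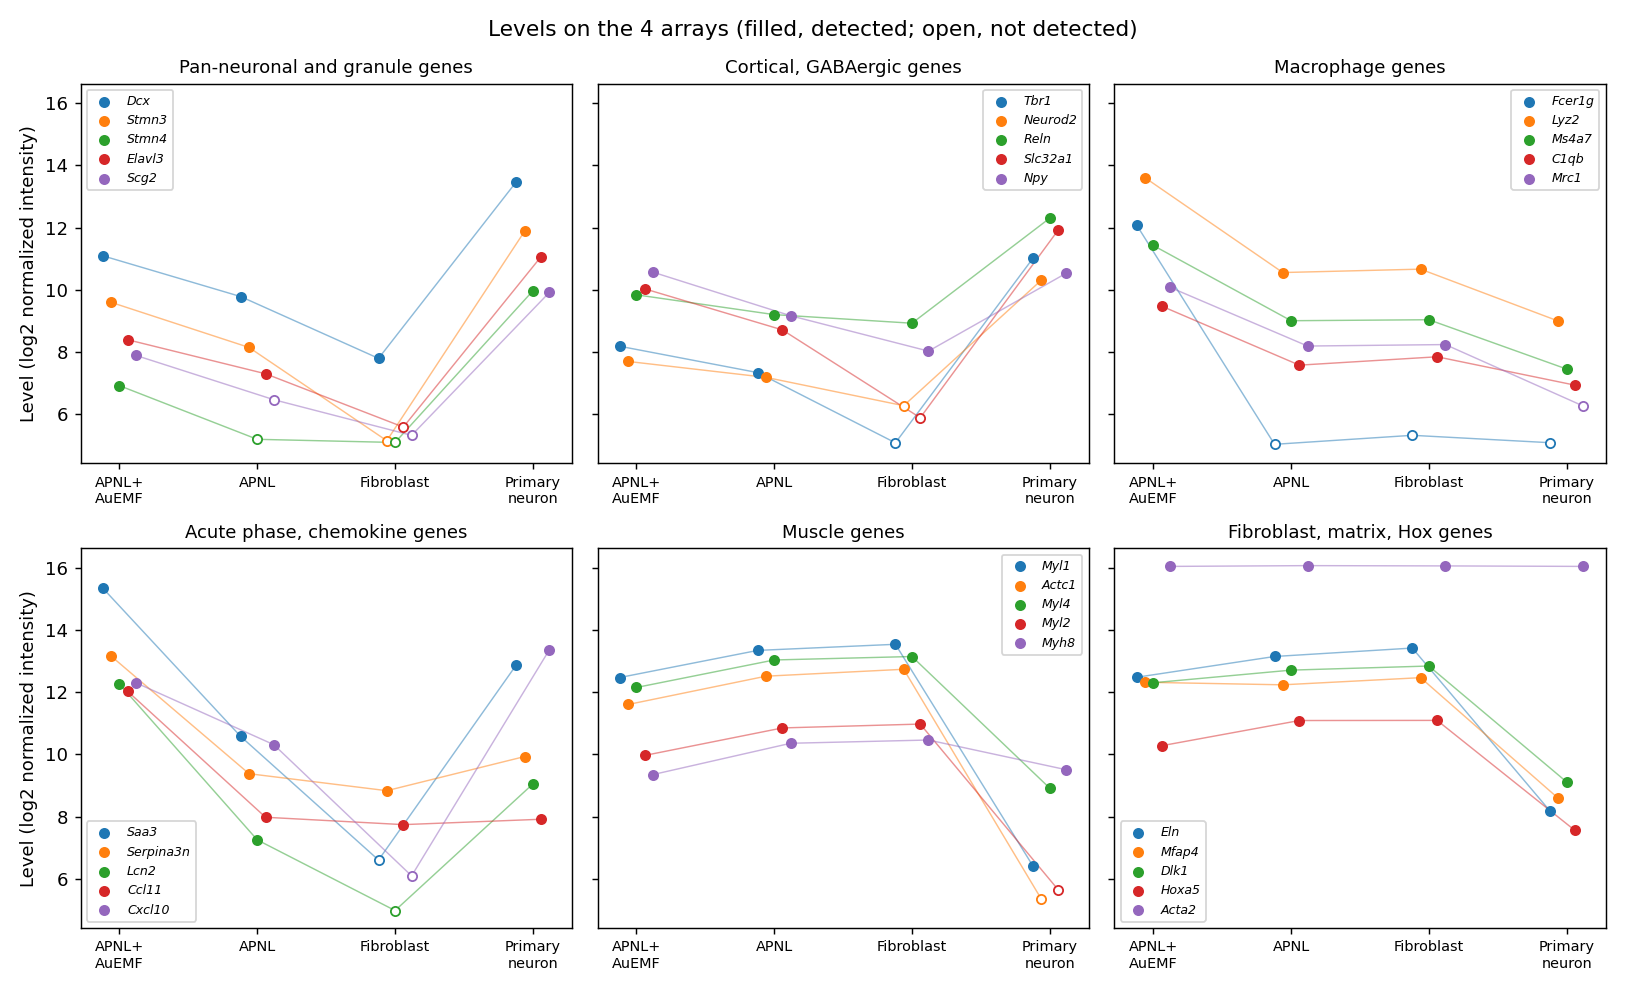
Levels (log2 normalized intensity, y axis) of 30 named genes on the APNL+AuEMF, APNL, Fibroblast and Primary neuron arrays (x axis), 1 array a point, with filled points for detected and open points for undetected genes; lines only join the points of a gene. Apart from Npy, the neuronal genes are highest on Primary neuron and second on APNL+AuEMF. Apart from Myh8 and Acta2, the muscle and fibroblast genes are far lower on Primary neuron than on the other 3 arrays, and Fcer1g, Lyz2, Ms4a7, Saa3 and Ccl11 are highest on APNL+AuEMF.

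The dopamine program was the question of the series. Besides Th, the enzyme that makes the dopamine precursor, Slc6a3, the dopamine transporter, and Slc18a2, the vesicular monoamine transporter, 10 more of the 21 dopaminergic genes with a probe were detected on neither array. Of the 8 compared, 3 were higher, 2 lower and 3 neither, and the median was 1.21 at measured values and 0.66 with undetected levels at their bounds, and 0.45 over members that both arrays detected. Ddc, which makes dopamine from its precursor and is also made outside neurons, was at 8.44 on APNL+AuEMF, 9.27 on APNL, 9.51 on Fibroblast and 6.81 on Primary neuron. Wnt5a, a secreted signal, was at 13.15 on APNL+AuEMF, 13.78 on APNL, 13.88 on Fibroblast and 11.61 on Primary neuron. Maob, which breaks down amines, was detected on APNL+AuEMF at 8.15 and not on Primary neuron, at least 3.45-fold higher, a log2 difference of 1.79 that was 0.21, under 2-fold, with the mean of its probes. All 3 of these had a level on Fibroblast above or within 2-fold of that on APNL+AuEMF. The 2 lower genes were midbrain patterning factors, En2 at 6.98 on APNL+AuEMF, 5.75 on APNL, 5.10 on Fibroblast and 9.10 on Primary neuron, and Otx2 at 8.55 on APNL+AuEMF, 7.17 on APNL, 4.92 on Fibroblast and 10.16 on Primary neuron. In contrast En1, of the same list, was at 9.45 on APNL+AuEMF, 9.80 on APNL, 9.88 on Fibroblast and 8.55 on Primary neuron. Its difference of 0.90 was in the other direction and under 2-fold. Among the reprogramming factors, Nr4a2 was at 7.19 on APNL+AuEMF, 7.26 on APNL, 7.19 on Fibroblast and 7.71 on Primary neuron. Lmx1a was detected on Primary neuron alone, at 6.67, and Pitx3 on no array. A probe outside the delivered coding sequence does not see an introduced gene, and the probe positions were not used here, so these levels check nothing about delivery.

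Genes of neural progenitors and of axon guidance were split. Among 12 compared progenitor genes 6 were lower and none higher, and the median was -1.31, or -1.07 at bounds and -0.17 with no detection filter. Neurog2, a factor that starts cortical neuron production, was undetected at 5.59 on APNL+AuEMF, against 9.11 on Primary neuron, at least 5.75-fold lower. The other usable probe of Neurog2 differed by -0.76, under 2-fold. Igfbpl1 differed by -2.11 and Insm1, a factor of newborn neurons, by -1.42, whereas Nes, nestin, was at 10.91 on APNL+AuEMF and 11.29 on Primary neuron. Of 18 guidance and growth genes 6 were lower, 3 higher and 9 neither. Cntnap2, an axonal adhesion protein, was at 8.07 on APNL+AuEMF, 6.70 on APNL, 5.01 on Fibroblast and 10.30 on Primary neuron. Slit2, a secreted repellent made by many mesenchymal cells, was higher, at 12.29 on APNL+AuEMF and 10.98 on Primary neuron, with 12.81 on Fibroblast.

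REST is a repressor that keeps neuronal genes silent in other cells, and the letters of part of its site were looked for in promoters because many lower genes were neuronal. RefSeq promoters (build GRCm38.p6, 250 bases before the start to 50 after it) matched 7391 of the 9076 compared genes, 501 of them higher and 476 lower. The letters GGACAGC, then any 1 base, then CC, on either strand, occurred in 9 promoters of lower genes (1.89%), in 2 of higher genes (0.40%), and in 0.87% of all compared and 0.67% of all 27025 promoters. The promoters of Scg2 and Glra2, shown because both genes are among the lower ones described above, at chr1:79440027-79440073 and chrX:165327411-165327480, both on the minus strand, held it in reverse complement, shown in capitals below and starting 17 and 57 bases before the start.
Scg2: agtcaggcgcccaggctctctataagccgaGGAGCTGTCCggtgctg
Glra2: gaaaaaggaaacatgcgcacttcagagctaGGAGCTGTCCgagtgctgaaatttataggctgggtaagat
The 2 windows share the same 10 letters. These letters occurred in 1 of 8 promoters of compared granule genes and in 1 of 7 of receptor genes. They occurred in 0 of 18 promoters of pan-neuronal genes, 0 of 19 of synaptic vesicle genes and 0 of 8 of postsynaptic genes. In the glutamatergic list they occurred in 0 of 12 and in the GABAergic list in 0 of 10. A match describes letters in a window and shows no binding.

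Glia differed little between the arrays. All 9 compared astrocyte genes were within 2-fold, with a median of -0.12. Slc1a3, a glutamate transporter of astrocytes, was at 13.22 on APNL+AuEMF, 12.39 on APNL, 11.74 on Fibroblast and 13.58 on Primary neuron, and Gfap was not detected on any array. On the oligodendrocyte lineage list 7 of 8 were neither, among them Olig1 at 12.13 on APNL+AuEMF and 12.39 on Primary neuron. The higher one was Gpr17, a receptor of precursor cells, at least 2.00-fold, whose own level was 8.55 on Fibroblast and whose difference without background correction was 0.50.

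Globin genes of red cells were detected on the Primary neuron array and not on APNL+AuEMF. Hba-a1, an alpha globin gene, was undetected at 5.28 on APNL+AuEMF, 5.24 on APNL and 5.02 on Fibroblast, against 11.24 on Primary neuron, so it was at least 25.2-fold lower on APNL+AuEMF, the largest such bound. All 3 compared globin genes were lower by their bounds, with a list median of -2.88, or -1.86 at bounds and -1.57 without background correction. Near-identical globin copies may share probes. Ttr, transthyretin of the choroid plexus, was at 11.15 on APNL+AuEMF, 9.87 on APNL, 5.66 on Fibroblast and 12.88 on Primary neuron, a 3.30-fold difference, whereas the choroid genes Kl and Folr1 were undetected on all arrays.

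**Figure D3:**
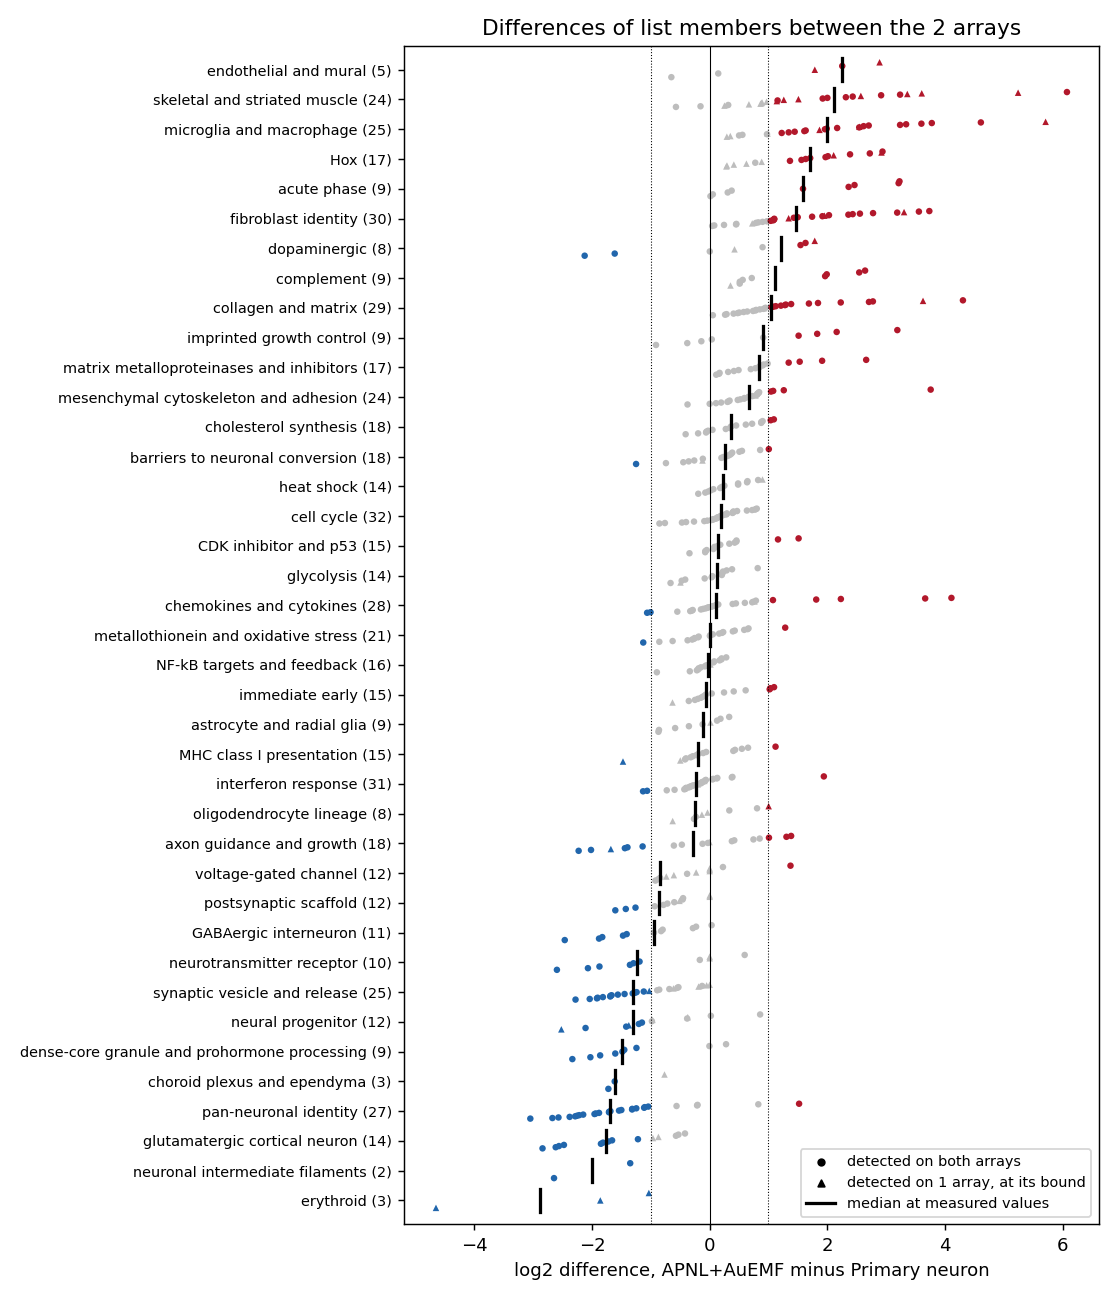
Log2 difference, APNL+AuEMF minus Primary neuron (x axis), of each compared member of 39 gene lists (y axis, number of compared members in brackets), sorted by the median. Circles are genes detected on both arrays, triangles are bounds, red is higher and blue lower by 2-fold or more, and black bars are medians at measured values. The glutamatergic, pan-neuronal and synaptic vesicle lists have medians of -1.77, -1.69 and -1.30, and muscle, macrophage, Hox, acute phase and fibroblast lists between 1.46 and 2.11.

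A muscle gene had the largest reported difference among genes detected on both arrays. Myl1, a myosin light chain of fast skeletal muscle, was at 12.47 on APNL+AuEMF, 13.35 on APNL, 13.54 on Fibroblast and 6.40 on Primary neuron, a difference of 6.08 or 67.4-fold. Its Primary neuron level was just above the lowest detected level of that array, 6.36, so the size of the fold is uncertain. The Myl1 difference was 4.87 without background correction and 3.27 with the mean of its probes. Actc1, cardiac actin, was at 11.61 on APNL+AuEMF, 12.52 on APNL and 12.74 on Fibroblast and undetected on Primary neuron, at least 37.9-fold higher. In each case the APNL+AuEMF level was somewhat under that on Fibroblast and far above that on Primary neuron. Of 24 compared muscle genes 15 were higher, 0 lower and 9 neither, against 7.42% higher over all genes, and the median was 2.11, against 1.38 at bounds and 1.26 without background correction. Myl2 was higher by at least 12.2-fold, Myl3 by at least 10.3-fold and Nppa, an atrial hormone gene, by at least 16.9-fold. Myl4, an embryonic light chain, differed by 3.24, while Myh8, the perinatal myosin heavy chain, was at 9.35 on APNL+AuEMF and 9.51 on Primary neuron. The median level of the list was 9.38 on APNL+AuEMF, 10.3 on APNL, 10.3 on Fibroblast and 5.96 on Primary neuron.

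Fibroblast and matrix genes were higher on APNL+AuEMF. Of 30 compared fibroblast identity genes, 20 were higher and the other 10 neither, and the median was 1.46. Their median level was 11.1 on APNL+AuEMF, 11.2 on APNL, 11.3 on Fibroblast and 9.85 on Primary neuron. Pdgfra, a receptor for PDGF on fibroblasts, was at 12.34 on APNL+AuEMF, 12.63 on APNL, 12.71 on Fibroblast and 9.15 on Primary neuron. Mfap4, a protein of elastic fibres, was at 12.32 on APNL+AuEMF, 12.24 on APNL, 12.47 on Fibroblast and 8.59 on Primary neuron. Meox2, a mesenchymal homeobox factor, differed by 3.56 and Osr2, of limb and palate mesenchyme, by 2.78. Dpt, dermatopontin, was higher on APNL+AuEMF, at 9.67, than on Fibroblast, at 8.22, and undetected on Primary neuron. Zeb1 and Zeb2, factors of the mesenchymal state, differed by 0.04 and 0.08.

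Among 29 matrix genes 14 were higher and none lower, and the median was 1.05. Eln, elastin, was at 12.48 on APNL+AuEMF, 13.15 on APNL, 13.42 on Fibroblast and 8.18 on Primary neuron, a 19.8-fold difference. Col15a1, a basement membrane collagen, was at least 12.4-fold higher. Col1a2, a chain of type I collagen, differed by 2.71, Fbn2, a fibrillin of the embryo, by 2.78 and Col5a2 by 2.23, while Col7a1 differed by 0.05. Itga11, a collagen receptor, was at 13.51 on APNL+AuEMF, 14.00 on APNL, 14.04 on Fibroblast and 9.75 on Primary neuron. It was 1 of 4 higher genes among 24 of the mesenchymal cytoskeleton and adhesion list, whose other 20 were neither. Acta2, smooth muscle actin, had 16.05 on APNL+AuEMF and 16.05 on Primary neuron. Its raw intensity was 68244 units on APNL+AuEMF and 68254 on Primary neuron, against array maxima of 69776 on APNL+AuEMF and 68765 on Primary neuron, so a difference at the top of the scale may not be seen.

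Position and growth genes of the mesenchyme followed the same side. Of 17 compared Hox genes, which mark position along the body axis, 11 were higher, 0 lower and 6 neither, with a median of 1.71. Hoxc10 was at 9.99 on APNL+AuEMF, 10.59 on APNL, 10.65 on Fibroblast and 7.05 on Primary neuron, a 7.67-fold difference, and Hoxa5 differed by 2.72. Hoxd10 was at least 7.58-fold higher. All 3 were within 2-fold of their Fibroblast level. Among 9 imprinted genes 4 were higher and none lower, and the median was 0.91, or 0.0355 at a detection p under 0.05. Dlk1, a Notch-like membrane protein of embryonic tissues, was at 12.31 on APNL+AuEMF, 12.71 on APNL, 12.84 on Fibroblast and 9.12 on Primary neuron. Peg3 differed by 2.16, Igf2r, which clears IGF2, by 1.83 and Cdkn1c, a cell cycle inhibitor, by 1.51. Igf2 itself had 15.96 on APNL+AuEMF and 15.93 on Primary neuron, again near the top of the scale.

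Of 5 compared endothelial and mural genes 3 were higher, and the median was 2.25, or 0.15 over members that both arrays detected. Flt1, a VEGF receptor, was at 11.74 on APNL+AuEMF, 12.17 on APNL, 12.35 on Fibroblast and 9.49 on Primary neuron. Emcn was at least 7.41-fold and Tek, an angiopoietin receptor, at least 3.45-fold higher. The defining endothelial markers Pecam1, Cdh5 and Kdr were undetected on all 4 arrays.

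Letters of the E-box were read on both strands because muscle factors bind it. The letters CAGCTG, 1 form of the E-box that MyoD and other bHLH factors bind, occurred in 8 of 21 promoters of compared muscle genes, in 21.2% of higher, 17.6% of lower and 14.7% of all compared genes, and in 16.1% of all promoters. They also occurred in 7 of 17 promoters of the macrophage list and in 5 of 12 of the immediate early list. Most other lists had smaller shares, so a large share was not particular to muscle. Promoters of higher genes held a median of 13 CG dinucleotides in 300 bases, those of lower genes 20 and those of the rest 21. The middle 50% of these counts overlapped, with 6 to 24 for higher and 10 to 30 for lower genes. A low CG content is usual for promoters of tissue-restricted genes.

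Many macrophage genes had their highest level on APNL+AuEMF. Fcer1g, the gamma chain of Fc receptors in myeloid cells, was at 12.07 on APNL+AuEMF and undetected at 5.03 on APNL, 5.32 on Fibroblast and 5.08 on Primary neuron. It was at least 52.4-fold higher than on Primary neuron, the largest such bound as reported, or a log2 difference of 5.71, which was 4.49 without background correction. Lyz2, macrophage lysozyme, was at 13.60 on APNL+AuEMF, 10.55 on APNL, 10.66 on Fibroblast and 8.99 on Primary neuron, a 24.4-fold difference. Its near-identical neighbour Lyz1 differed by 3.78, and the probes may not tell the pair apart. Ms4a7, a membrane protein of macrophages, was at 11.42 on APNL+AuEMF, 9.00 on APNL, 9.03 on Fibroblast and 7.45 on Primary neuron. Mrc1, the mannose receptor, was at 10.08 on APNL+AuEMF, 8.19 on APNL and 8.24 on Fibroblast and undetected on Primary neuron, at least 13.2-fold higher. Clec4d, a lectin receptor, differed by 3.60 and Ms4a6d by 3.34. Of 25 compared genes on the list 19 were higher, 0 lower and 6 neither, with a median of 1.99. The list's median level was 9.60 on APNL+AuEMF, 7.57 on APNL, 7.84 on Fibroblast and 7.19 on Primary neuron. Of 5 macrophage markers with a probe, 4 were detected on APNL+AuEMF and 3 on Primary neuron, and their summed level was 44.7 on APNL+AuEMF and 32.6 on Primary neuron. Adgre1, the antigen F4/80, was at 11.37 on APNL+AuEMF, 8.82 on APNL, 8.95 on Fibroblast and 8.13 on Primary neuron, whereas Ptprc, the antigen CD45, was undetected on all 4. Cx3cr1, a receptor of microglia, was at 7.40 on APNL+AuEMF, 8.37 on APNL, 8.25 on Fibroblast and 6.85 on Primary neuron, so it was not highest on APNL+AuEMF. The marker Aif1 was weak, at 7.04 on APNL+AuEMF, 6.95 on APNL and 6.54 on Primary neuron. The part of such cells in the results below was not tested.

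Complement genes, some of them macrophage products, were higher in part. Of 9 compared, 4 were higher and none lower, and the median was 1.11, or 0.72 at bounds. C1qb and C1qc, chains of the first component that macrophages make, differed by 2.54 and 1.99. Serping1, an inhibitor of that component, was at 12.02 on APNL+AuEMF, 10.64 on APNL, 10.71 on Fibroblast and 9.37 on Primary neuron. Cfb, of the alternative pathway, was at 7.86 on APNL+AuEMF and 7.35 on Primary neuron.

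Acute phase genes were the second group with a top level on APNL+AuEMF. Saa3, a serum amyloid made outside the liver, was at 15.34 on APNL+AuEMF, 10.58 on APNL, undetected at 6.60 on Fibroblast, and at 12.88 on Primary neuron, a 5.51-fold difference. Serpina3n, a protease inhibitor, was at 13.16 on APNL+AuEMF, 9.38 on APNL, 8.83 on Fibroblast and 9.93 on Primary neuron. Lcn2, which binds bacterial iron carriers, was at 12.26 on APNL+AuEMF, 7.25 on APNL, undetected at 4.98 on Fibroblast, and at 9.05 on Primary neuron. The last pair differed by 3.23 and 3.21, and in all 3 genes Primary neuron came second. Hp, haptoglobin, differed by 2.36, or by 0.62 with its other usable probe, and Cp, ceruloplasmin, by 1.59. These 5 were the higher genes of 9 compared, the other 4 being neither, with a median of 1.59, or 0.98 at a detection p under 0.05, which adds weak genes. Mt2, a metallothionein, differed by 0.01. Mt1, another, differed by 0.05, at a raw intensity of 64975 units on APNL+AuEMF and 61487 on Primary neuron, close to the array maxima given above.

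C/EBP and NF-kB factors are known drivers of acute phase genes, and letters of their sites were read on both strands, TTGC, any 2 bases and AA for C/EBP, and GGG, any 2 bases and TTTCC for NF-kB. The C/EBP letters occurred in 5 of 8 promoters of compared acute phase genes, in 9.98% of higher, 6.09% of lower and 7.78% of all compared genes, and in 10.8% of all promoters. The NF-kB letters occurred in 1.40% of higher, 0.63% of lower and 1.58% of all compared genes, and in 1.62% of all promoters. The windows shown are those of the 3 acute phase genes with the largest differences, with the match in capitals, starting 99, 216 and 171 bases before the start. They lie at chr7:46715738-46715805 (Saa3, minus strand, C/EBP), chr2:32387918-32387985 (Lcn2, minus strand, C/EBP) and chr12:104406507-104406576 (Serpina3n, plus strand, NF-kB).
Saa3: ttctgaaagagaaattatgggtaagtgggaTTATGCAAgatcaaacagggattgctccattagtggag
Lcn2: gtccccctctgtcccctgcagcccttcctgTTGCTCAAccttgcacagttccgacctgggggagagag
Serpina3n: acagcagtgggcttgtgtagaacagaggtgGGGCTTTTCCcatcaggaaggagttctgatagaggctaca
The Saa3 match is on the opposite strand to the letters as spelled, the other 2 on the same strand.

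Chemokines were divided between these patterns. Ccl11, eotaxin, was at 12.03 on APNL+AuEMF, 7.98 on APNL, 7.74 on Fibroblast and 7.92 on Primary neuron, a 17.3-fold difference. Ccl8, which attracts monocytes, was at 10.57 on APNL+AuEMF, 6.45 on APNL, 5.66 on Fibroblast and 6.91 on Primary neuron. Both stood out on APNL+AuEMF alone. Cxcl12, a homing signal made by stromal cells, was instead near its Fibroblast level, with 13.56 on APNL+AuEMF, 13.48 on APNL, 13.71 on Fibroblast and 11.33 on Primary neuron. Another pattern was that of Ccl3, at 10.55 on APNL+AuEMF, 8.44 on APNL, undetected on Fibroblast and at 10.52 on Primary neuron, and of Ccl7, at 13.99 on APNL+AuEMF and 14.01 on Primary neuron. These differed by 0.03 and -0.02. Over the whole list of 28 compared genes 5 were higher and 2 lower, against 7.42% and 6.74% over all compared genes. The median was 0.10. Il33, an alarmin, differed by 1.81 and Cxcl14 by 1.08, or 0.43 with neqc on these 2 arrays alone.

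The interferon response was near the neuron level on APNL+AuEMF. Of 31 compared genes 28 were neither, 1 was higher and 2 were lower, with a median of -0.23. Isg15, a ubiquitin-like protein, was at 11.89 on APNL+AuEMF, 10.10 on APNL, 8.83 on Fibroblast and 13.03 on Primary neuron. Cxcl10, an interferon-induced chemokine, was at 12.30 on APNL+AuEMF and 10.31 on APNL, undetected on Fibroblast, and at 13.37 on Primary neuron. These 2 were the lower members, by -1.13 and -1.06, and both were under 2-fold, at -0.84 and -0.77, with the arrays scaled to a common median. Ifi27l2a was the higher one, with a difference of 1.94. Ifitm3, an antiviral membrane protein, was at 15.84 on APNL+AuEMF and 15.78 on Primary neuron, also near the top of the scale. Of 15 MHC class I genes 13 were neither, among them B2m at 15.37 on APNL+AuEMF and 14.82 on Primary neuron. All 16 compared NF-kB targets were neither, with a median of -0.03, for example Nfkbia, the inhibitor of NF-kB, at 10.54 on APNL+AuEMF and 11.43 on Primary neuron, and Sod2 at 14.09 on APNL+AuEMF and 14.08 on Primary neuron.

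The letters of the interferon-stimulated response element, GAAA, any 2 bases and GAAA, read on both strands, occurred in 15 of 23 promoters of compared interferon genes, in 3.79% of higher, 3.57% of lower and 3.10% of all compared genes, and in 3.49% of all promoters. The Isg15 window, at chr4:156200845-156200926 on the minus strand, held 3 overlapping matches that start 78, 72 and 66 bases before the start. The Ifit3 window, at chr19:34583343-34583446 on the plus strand, held 2 in reverse complement, 156 and 122 bases before it, and Ifit3 was at 14.41 on APNL+AuEMF and 14.81 on Primary neuron. The 2 are shown because both are classical interferon targets, with the matches in capitals.
Isg15: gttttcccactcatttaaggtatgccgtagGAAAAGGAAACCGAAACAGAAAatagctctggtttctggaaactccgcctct
Ifit3: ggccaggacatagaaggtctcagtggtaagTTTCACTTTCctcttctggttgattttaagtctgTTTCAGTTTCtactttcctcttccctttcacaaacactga

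Matrix proteases had a median of 0.85, with 4 of 17 higher and 13 neither. Mmp3, stromelysin, was at 14.14 on APNL+AuEMF, 9.93 on APNL, 8.72 on Fibroblast and 11.48 on Primary neuron, the same order over the arrays as Saa3. Adamts5, which cuts aggrecan, differed by 1.91, Mmp2, a gelatinase, by 1.53 and Mmp12, of macrophages, by 1.34. Timp1, a protease inhibitor, was at 14.94 on APNL+AuEMF and 14.78 on Primary neuron.

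Growth, metabolism and stress genes mostly differed little. All 32 compared cell cycle genes were within 2-fold, with a median of 0.19, and Cdk1, the mitotic kinase, was at 11.09 on APNL+AuEMF and 11.14 on Primary neuron. Glycolysis (14 genes, median 0.13) and heat shock (14 genes, median 0.23) had 0 higher and 0 lower genes. In these lists too a bound can hide a 2-fold difference. The glycolysis gene Hk1, detected on Primary neuron only, had a measured difference of -1.38 and a bound of -0.50. The heat shock gene Hspa1a, detected on APNL+AuEMF only, had 1.22 and a bound of 0.89. Against 7.42% higher over all compared genes, 2 of 18 cholesterol synthesis genes were higher, Lss by 1.09 and Nsdhl by 1.04. The Nsdhl difference became -0.0933 with the mean of its probes. Against the same share, 2 of 15 genes of cell cycle inhibition and p53 were higher, Cdkn1c and Cdkn2b, a CDK4 inhibitor, the second by 1.16. The metallothionein and oxidative stress list had Slc7a11, the cystine transporter, higher by 1.28 and Mt3, the brain metallothionein, lower, at -1.13, or -0.94 without background correction. The immediate early list had 12 neither and 3 higher of 15, against 7.42% over all, with Klf2 at 1.09, Klf4 at 1.03 and Egr2 at 1.02. All 3 were under 2-fold without background correction, at 0.95, 0.94 and 0.86. The lowest measured difference of the immediate early list was -1.68, although 0 of its genes counted as lower.

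Of 18 compared genes named as barriers to neuronal conversion, 16 were neither. Yap1, a growth regulator, was at 11.62 on APNL+AuEMF, 11.78 on APNL, 11.83 on Fibroblast and 10.61 on Primary neuron, a difference of 1.01, or 0.96 without background correction. Id2, an inhibitor of bHLH factors, was lower, at 9.69 on APNL+AuEMF, 9.85 on APNL, 9.71 on Fibroblast and 10.94 on Primary neuron. Rest itself was detected on neither of the compared arrays.

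The APNL and Fibroblast arrays place these differences. Of the 673 higher genes, 420 (62.4%) had their highest level on Fibroblast, 158 (23.5%) on APNL+AuEMF and 95 (14.1%) on APNL, and 542 (80.5%) were within 2-fold of Fibroblast. A group of 75 (11.1%) was at least 2-fold above each of the other 3 arrays, and it held Fcer1g, Lyz2, Clec4d, Ccl11, Ccl8, Serpina3n and Lcn2. Of the 612 lower genes, 475 (77.6%) had their lowest level on Fibroblast, 101 (16.5%) on APNL and 36 (5.88%) on APNL+AuEMF. In 449 of them (73.4%) APNL+AuEMF had at least the level of APNL and APNL at least that of Fibroblast, and 317 (51.8%) were at least 2-fold above Fibroblast on APNL+AuEMF. These counts use the APNL+AuEMF array on both sides, so they describe an order of levels and are no second comparison.

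**Figure D4:**
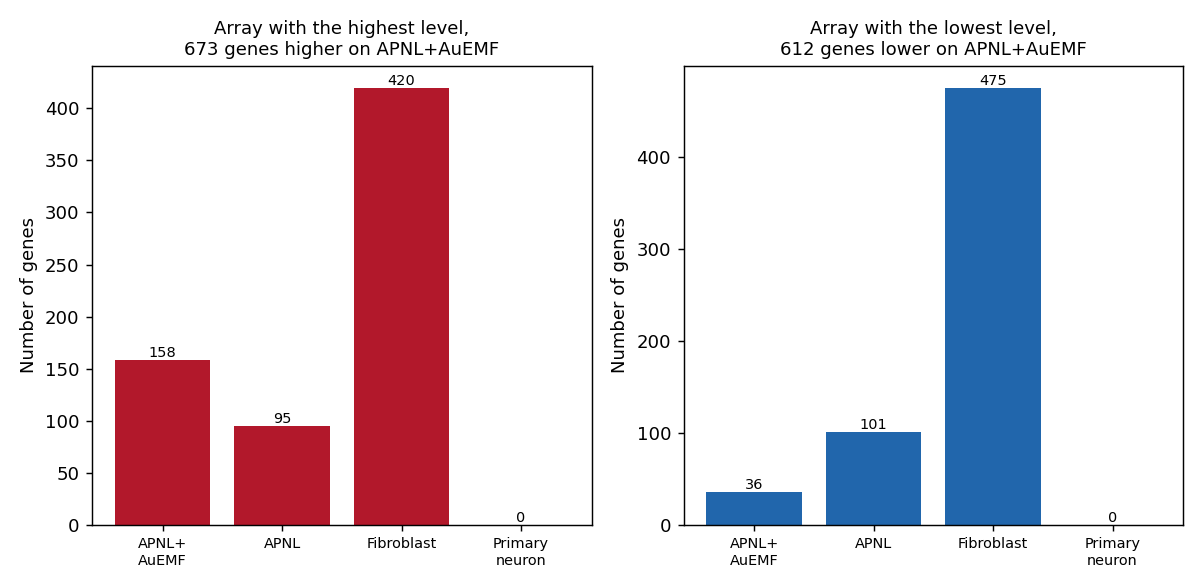
Number of genes (y axis) by the array that held their highest level, for the 673 higher genes (left), and their lowest level, for the 612 lower genes (right), over the arrays APNL+AuEMF, APNL, Fibroblast and Primary neuron (x axis). Fibroblast has the largest bar on both sides, with 420 and 475 genes, and the bars of 0 for Primary neuron follow from how the genes were counted.

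Genes with several probes were checked against their other probes. Of the higher and lower genes 282 had more than 1 usable probe. In 196 of these all other probes also differed by 2-fold or more, in 14 another probe had the opposite sign, and in 1 the opposite probe differed by 2-fold. Of the 143 named genes past 2-fold, 26 were under it in at least 1 other setting, 18 of them without background correction and 12 with the mean of a gene's probes. The counts moved with the background correction, as the plot by processing setting shows.

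**Figure D5:**
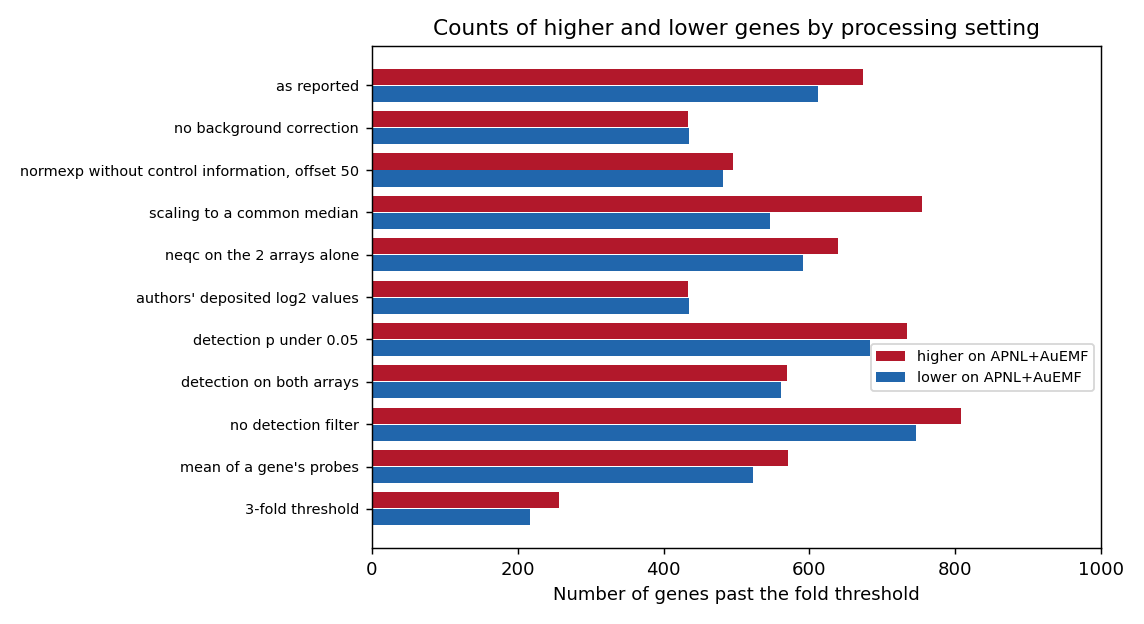
Number of higher (red) and lower (blue) genes past the fold threshold (x axis) under each processing setting (y axis), the reported setting on top. Higher counts run between 257 and 808 and lower counts between 217 and 746, the smallest at the 3-fold threshold and the largest with no detection filter.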

How the data were processed

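Total RNA (0.55 ug, per the labels) was hybridised to 1 array for each of 4 groups. The deposited table holds a raw probe intensity, on a linear scale, and a detection p-value against negative control beads for each array. The authors also deposited log2 values, which equal quantile-normalized log2 intensity without background correction, as far as the values show. GenomeStudio 2011.1 is named in the submitters' processing notes. The sources used here name neither the chip nor the scan dates. Background was corrected and the 4 arrays were quantile-normalized with neqc of limma 3.58.1 (R 4.3.3, offset 16, controls inferred from detection p-values). The precision is limited by the number of arrays.

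Of 25697 probes, 23978 had 1 gene symbol, 0 several and 1719 none, and 23962 matched RefSeq by gene identifier. A gene took its probe with the highest mean level. No test was made, because each group has 1 array. The members and the 40 lists (922 genes, 810 with a probe, 605 compared) were chosen with earlier results of these data known. Named were the reprogramming factors, the 12 largest differences and 8 largest bounds each way, and per list up to 5 largest and 2 smallest differences, passing over unnamed gene models. Of the 500 genes detected on Primary neuron only, 163 had a level there under the lowest detected level on APNL+AuEMF and so no bound. Cell type markers and other genes named outside this rule, among them Sst, Gad1, Ifit3, Ncam1 and Slit2, were chosen after their values were seen. Calculations used Python 3.11.15, numpy 2.4.6 and pandas 2.3.3, figures matplotlib 3.10.9, and the steps were tested on simulated data. Background correction, normalization, detection filter, probe rule and fold threshold were altered 1 at a time.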

Additional observations from a re-analysis of the deposited data

How the results depend on the processing

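No paired analysis was possible because each group has 1 array. Counts of 673 higher and 612 lower genes became 433 and 435 without background correction and with the authors' log2 values (both the same values), and 257 and 217 at 3-fold. Scaling the arrays to 1 median, without quantile normalization, moved the median of all genes to 0.17, against 0.04, and gave 754 higher and 546 lower genes (58.0% higher, against 52.4%). Of the recomputed differences of named genes, 2249 moved by under 1.5-fold, 160 by more and 2 reversed. Without background correction 44 of 272 moved by more, with the mean of a gene's probes 25. Of the recomputed list medians, 336 moved by under 1.5-fold and 23 by more. Medians near 0 changed sign for the oligodendrocyte list (-0.29 to 0.05), the immediate early list (-0.07 to 0.07) and the NF-kB list (-0.0571 to 0.0032). Without background correction, also with the authors' values, the endothelial median was 1.27, the erythroid -1.57 and the muscle 1.26, and with normexp and an offset of 50 the endothelial was 1.53 and the erythroid -1.97. With detection p under 0.05 the endothelial median was 0.90, the acute phase 0.98 and the imprinted 0.0355. With detection on both arrays the endothelial was 0.15 and the dopaminergic 0.45. With no filter the medians were 0.36 for endothelial, -0.53 erythroid, 0.22 acute phase, 0.11 imprinted, 0.0859 dopaminergic, -0.17 neuronal intermediate filaments, -0.15 receptors, -0.17 progenitors and -0.22 choroid plexus, since undetected genes then enter. With the mean of a gene's probes the endothelial median was 1.16. Of the single genes Nsdhl, 1.04 as reported, reversed to -0.21 with neqc on the 2 arrays alone and to -0.0933 with the mean of its probes; the cause was not tested. Folds of genes undetected on 1 of the 2 arrays are bounds. Genes detected just above background, such as Myl1 on Primary neuron, have measured folds that are uncertain.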

Other observations

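The genes of this paragraph were chosen after their values were seen. Cyp2f2, a lung-type cytochrome P450, was at 9.11 on APNL+AuEMF and undetected on APNL, Fibroblast and Primary neuron, at least 6.72-fold higher than on Primary neuron. Reg3g, an antibacterial lectin of epithelia, was at 9.00 on APNL+AuEMF and likewise undetected on the other 3 arrays, at least 6.24-fold higher. Both share with Fcer1g that APNL+AuEMF alone detected them.

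Y-linked genes differed between the compared arrays, and Xist differed little. Kdm5d, a Y-linked histone demethylase, was at 8.27 on APNL+AuEMF, 9.11 on APNL, 8.99 on Fibroblast and 6.88 on Primary neuron. Eif2s3y, a Y-linked translation factor, was at 7.51 on APNL+AuEMF and undetected on Primary neuron, at least 2.21-fold higher. It was at 5.70 on APNL and 5.07 on Fibroblast, under the lowest detected levels there (6.93 on APNL and 7.13 on Fibroblast). Xist, the RNA of the silenced X chromosome, was at 8.57 on APNL+AuEMF, 9.14 on APNL, 9.30 on Fibroblast and 8.47 on Primary neuron. The labels give no sex. All 4 arrays had Xist detected beside the Y-linked Kdm5d, whereas of these arrays only APNL+AuEMF detected Eif2s3y.

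The letters AAAGGTCA, which NR4A receptors such as Nurr1 bind, occurred on either strand in 7 of 501 promoters of higher genes (1.40%), in 0 of 476 of lower genes and in 51 of 7391 of all compared genes (0.69%). With so few matches this is a count and nothing more. Genes with a lower level on APNL+AuEMF spanned a median of 29.4 kb, those with a higher level 27.0 kb and the others 21.4 kb.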
